A study of Mus musculus with 16 samples.

Results

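The dual specificity phosphatases examined here are 8 mouse genes, Dusp1, Dusp2, Dusp4, Dusp5, Dusp6, Dusp7, Dusp10 and Dusp11, taken by symbol from the annotation of the arrays. Of the 8 genes, 7 matched 11 probe sets, among 17097 genes matched in all. No probe set of the annotation table was listed for Dusp5, so no value is given for it. All 7 matched genes had a probe set above a log2 value of 5 on at least 4 arrays and were tested among 8139 genes that passed this filter. Dusp4 passed mainly through the groups in which it was high, with values above 5 on 13 of 16 arrays.

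Transcripts were measured in CD4 T cells sorted from spleens of 6 week old NOD/LtJ mice, a strain that develops autoimmune diabetes, with 16 Affymetrix arrays and 4 arrays in each of 4 groups. Regulatory cells (Tregs) were set against conventional CD4 T cells (Tconv), in mice labelled WT with the transgene Tg(Foxp3-EGFP/cre)1aJbs and in mice labelled KI with the allele Foxp3tm2Ayr. The transgene places a fluorescent protein and Cre under Foxp3 regulatory sequence and leaves the endogenous gene in place, whereas the knock-in allele, also called Foxp3gfp, encodes a GFP-Foxp3 fusion protein. The WT mice are therefore not free of a reporter, no other treatment was given, and the comparison is of 1 reporter strain with another. Nothing in the labels tells whether replicate arrays stand for different animals, so p-values here measure the spread between these samples, which may be technical.

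Foxp3, the transcription factor that defines Tregs, averaged 9.86 ± 0.20 and 9.76 ± 0.29 (log2, SD, n = 4) in the WT and KI samples labelled as Tregs and 4.63 ± 0.32 and 3.69 ± 0.09 in Tconv. The labels give a single GFP-negative gate for every sample, and these Foxp3 values separate the Tregs from the Tconv in spite of it. The 6 T cell markers measured had a mean log2 value of 10.4 to 10.7 on every array. B cell, monocyte, neutrophil and NK marker lists had 3 of 5, 4 of 6, 4 of 6 and 2 of 6 genes above 5 on some array. Their mean levels overlapped between the groups, whereas 0 of 4 dendritic cell markers exceeded 5. Single genes still differed between Tregs and Tconv, such as Cd79b (WT 7.41 and 6.26, KI 6.99 and 5.61) and Cd68 (WT 5.04 and 3.92, KI 5.22 and 3.975). Nkg7 of the NK list did too (WT 7.96 and 7.07, KI 7.60 and 6.64), while Ms4a1 ran the other way in WT (6.62 and 6.92). The part of these genes in the results below was not tested. The CD8 list differed with cell type, at 6.11 to 6.45 in WT Tregs against 4.80 to 5.19 in WT Tconv and 5.85 to 6.26 in KI Tregs against 5.18 to 5.61 in KI Tconv. Of its 2 genes, Cd8a had means of 6.43 and 4.08 in WT Tregs and Tconv and Cd8b1 of 6.09 and 6.01, and its part in the results below was not tested. The titles number the arrays: 4 to 9 are all WT, 13 to 23 are all KI, and 24 to 27 hold 1 array of each group, here replicate 4 throughout. Only arrays 24 to 27 set WT and KI side by side within 1 run of numbers, so genotype differences are also given within and outside them.

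Dual specificity phosphatases remove phosphate from both tyrosine and serine or threonine residues. Most of these genes encode mitogen-activated protein (MAP) kinase phosphatases, which switch off ERK, p38 and JNK. Several are transcribed in response to the kinases they inactivate and so act as negative feedback after T cell receptor signalling. Dusp1, Dusp2, Dusp4 and Dusp5 encode inducible nuclear enzymes, Dusp6 and Dusp7 cytoplasmic enzymes that prefer ERK, and Dusp10 an enzyme that prefers p38 and JNK. Dusp11 is the exception, since its product acts mainly on the phosphates at the 5′ end of RNA.

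Start-site sequences are shown for Dusp1, the gene with the widest spread within the KI groups. They are also shown for Dusp6 and Dusp10, which were lower in Tregs than in Tconv of both genotypes. Each runs from 250 bases before to 50 bases after a RefSeq transcription start on build GRCm38.p6, and 7 of the 8 genes had such an entry. Dusp4, the gene with the largest difference between Tregs and Tconv, had none. In Dusp1, on the minus strand at chr17:26508423-26508722, capitals mark matches of a cyclic AMP response element (CRE) or its core. Dusp6 lies on the plus strand at chr10:99262981-99263280 and Dusp10 on the plus strand at chr1:184034131-184034430.
Dusp1: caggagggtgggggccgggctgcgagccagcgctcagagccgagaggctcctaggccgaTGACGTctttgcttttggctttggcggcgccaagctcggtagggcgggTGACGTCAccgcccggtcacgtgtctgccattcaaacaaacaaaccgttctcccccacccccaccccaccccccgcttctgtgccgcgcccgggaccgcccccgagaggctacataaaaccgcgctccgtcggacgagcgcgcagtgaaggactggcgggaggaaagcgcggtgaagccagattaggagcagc
Dusp6: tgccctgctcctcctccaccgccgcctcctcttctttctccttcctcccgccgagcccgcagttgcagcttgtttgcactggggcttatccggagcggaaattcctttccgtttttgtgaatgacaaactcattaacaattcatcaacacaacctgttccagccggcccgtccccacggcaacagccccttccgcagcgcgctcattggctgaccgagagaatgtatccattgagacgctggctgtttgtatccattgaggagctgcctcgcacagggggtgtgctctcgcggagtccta
Dusp10: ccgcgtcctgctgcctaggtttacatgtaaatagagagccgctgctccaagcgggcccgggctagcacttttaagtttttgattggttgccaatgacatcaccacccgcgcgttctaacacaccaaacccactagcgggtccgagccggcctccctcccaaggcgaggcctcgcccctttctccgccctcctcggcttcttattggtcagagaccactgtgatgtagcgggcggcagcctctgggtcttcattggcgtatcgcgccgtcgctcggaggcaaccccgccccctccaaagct

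Motifs were searched by letters on both strands. The Dusp1 window held 1 match of the CRE, TGACGTCA, starting at position -143 from the start site. The core TGACGT matched 3 times, at -191, -143 and -141, the last 2 lying inside the full element on opposite strands. Among all 32851 promoter windows of this length, 1.79% held the full element and 7.51% the core. No match was found in the Dusp6 and Dusp10 windows, or in those of Dusp2, Dusp7 and Dusp11, for these motifs, the forkhead motif TGTTTAC (3.65% of all windows), the AP-1 motif TGANTCA (7.81%), the ETS motif CCGGAAG (8.86%) or the CArG box (1.63%). The Dusp1 window matched none of the last 4. The window of Dusp5, which has no value here, held 2 matches of the CArG box, at -82 and -72, and 1 of the CRE core, at -56. These are letter matches, not measured binding.

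Tregs and Tconv were compared within each genotype to ask which of these phosphatase transcripts mark the regulatory cells. Dusp4 rose, and Dusp6 and Dusp10 fell, in Tregs of both genotypes, while Dusp7 fell in KI Tregs. By limma with Benjamini-Hochberg adjustment, 3 of the 7 genes passed an adjusted p of 0.05 in WT, 1 higher and 2 lower, where 34.6% of all genes passed. In KI, 4 of 7 passed, 1 higher and 3 lower, where 41.1% of all genes did. The arrays of Tregs and Tconv did not overlap for 4 of 7 genes in WT and 3 of 7 in KI, against 37.2% and 34.7% of all genes. The median Treg minus Tconv difference over the 7 genes was -0.16 in WT and -0.09 in KI, beside -0.02 and -0.02 over all genes tested.

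**Figure D1:**
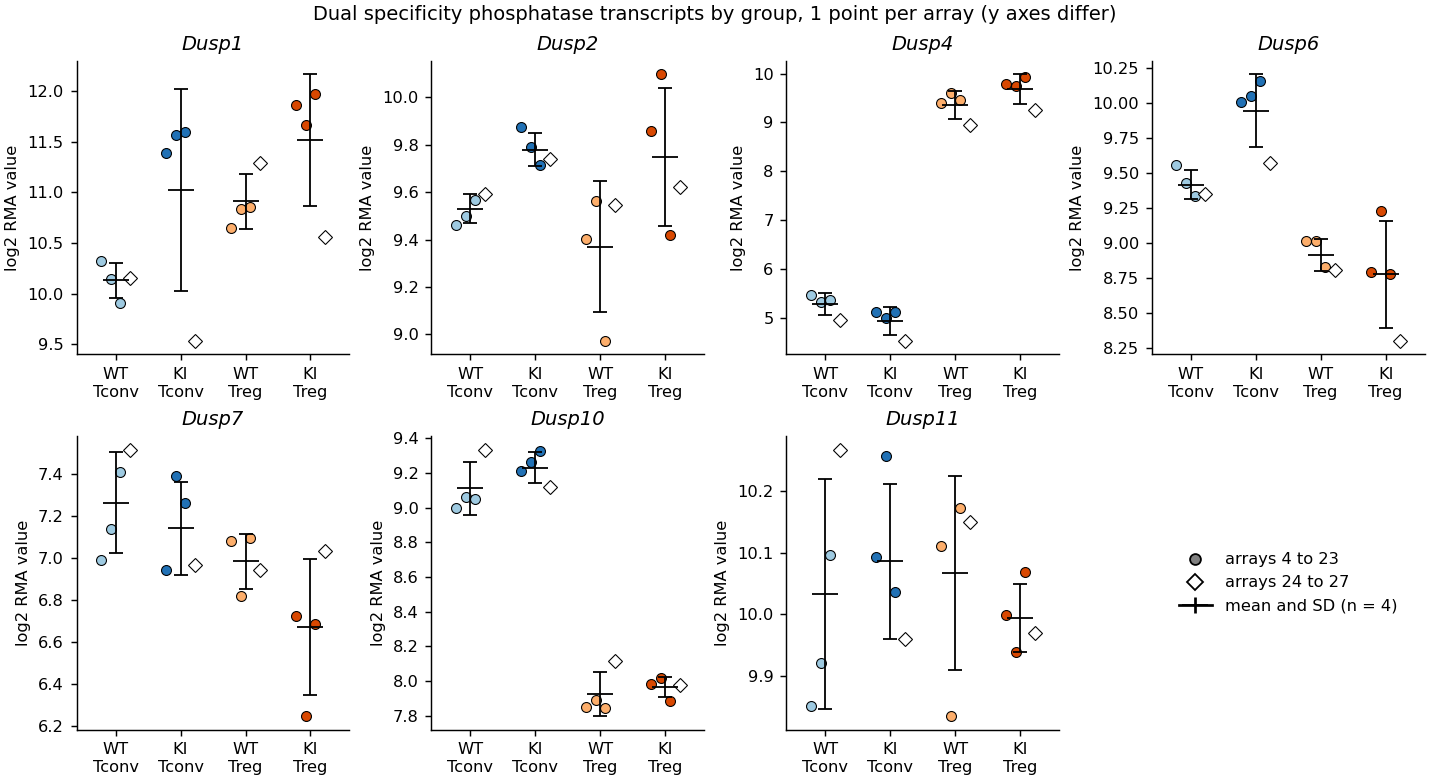
Log2 RMA value (y axis, scaled separately in each panel) of 7 dual specificity phosphatase genes in WT and KI Tconv and Treg arrays; each point is 1 array, white diamonds are arrays 24 to 27, and bars are the mean and SD of 4 arrays. Dusp4 lies between 8.94 and 9.94 in Tregs and between 4.52 and 5.46 in Tconv, Dusp10 is separated the opposite way, and the Dusp1 diamond of KI Tconv lies apart at 9.53.

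Dusp4 encodes a nuclear phosphatase of ERK and JNK. Its log2 values were 9.41, 9.61, 9.46 and 8.94 in the 4 WT Treg arrays and 5.46, 5.33, 5.37 and 4.95 in WT Tconv. In KI they were 9.80, 9.76, 9.94 and 9.25 in Tregs and 5.12, 4.99, 5.11 and 4.52 in Tconv. Every Treg array lay above every Tconv array. The Tconv level was low but mostly above background: 7 of 8 Tconv arrays exceeded the highest of 23 control probe sets without a specific target (4.71, median 2.60), and 5 exceeded 5. The difference was 4.08 (SE 0.17, 95% interval 3.72 to 4.44), a 16.9-fold higher level in WT Tregs, with an adjusted p of 2.42e-12 by limma. In KI it was 4.75 (SE 0.17, 95% interval 4.39 to 5.11), a 26.9-fold higher level, with an adjusted p of 1.84e-13 by limma. Within arrays 24 to 27 alone the differences were 3.99 in WT and 4.73 in KI.

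Dusp1 encodes a nuclear phosphatase of p38 and JNK and is itself an immediate early gene. Its values were 10.65, 10.83, 10.86 and 11.29 in WT Tregs and 10.32, 10.14, 9.90 and 10.15 in WT Tconv. The groups did not overlap, but the difference of 0.78 (SE 0.36, 95% interval 0.02 to 1.54) had an adjusted p of 0.106 by limma. In KI the difference was 0.50 (95% interval -0.27 to 1.26) with an adjusted p of 0.295, and the groups overlapped. The fit uses 1 variance for all 4 groups, and the SD was 0.65 in KI Tregs and 0.99 in KI Tconv against 0.27 and 0.17 in WT. Over the alternatives tried, the adjusted p of the WT difference ran from 9.87e-05 to 0.224, and the difference passed in 5 of 28 of them, including that without KI Tconv replicate 4 (adjusted p 0.0106 by limma). With array numbers as 3 blocks the differences kept their size and passed in both genotypes, with adjusted p-values of 9.87e-05 in WT and 0.00419 in KI by limma, and with 2 blocks they were 0.0529 and 0.203. Without arrays 24 to 27, an alternative added after the data were seen, they were 0.000180 and 0.0261. Within arrays 24 to 27 the differences were 1.14 in WT and 1.03 in KI.

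Dusp2, the nuclear phosphatase first found in activated lymphocytes, did not pass in either genotype. Its values were 9.40, 9.56, 8.97 and 9.55 in WT Tregs and 9.46, 9.50, 9.57 and 9.59 in WT Tconv, and the groups overlapped. The difference was -0.16 (95% interval -0.43 to 0.11) in WT and -0.03 (95% interval -0.30 to 0.24) in KI.

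Dusp6, the cytoplasmic phosphatase that dephosphorylates ERK, was lower in Tregs. In WT the values were 9.01, 9.01, 8.82 and 8.80 in Tregs and 9.56, 9.43, 9.33 and 9.35 in Tconv. In KI they were 8.79, 9.23, 8.78 and 8.30 in Tregs and 10.00, 10.05, 10.16 and 9.57 in Tconv. No Treg array reached the lowest Tconv array of its genotype. Dusp6 fell by 0.50 (SE 0.15) in WT Tregs, a 1.42-fold lower level with an adjusted p of 0.0135 by limma, and by 1.17 (SE 0.15) in KI Tregs, a 2.25-fold lower level with an adjusted p of 4.35e-06. Both calls held under all 28 alternatives, with adjusted p-values up to 0.0422 in WT and 0.000343 in KI. Dusp4 and Dusp6 thus differed between the same cells in opposite directions.

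Dusp7, the other cytoplasmic ERK phosphatase, had values of 7.08, 6.82, 7.10 and 6.94 in WT Tregs and 6.99, 7.14, 7.41 and 7.52 in WT Tconv. In KI they were 6.72, 6.25, 6.69 and 7.04 in Tregs and 6.94, 7.39, 7.26 and 6.97 in Tconv. The groups overlapped in both genotypes. Dusp7 fell by 0.47 (SE 0.15) in KI Tregs, with an adjusted p of 0.0204 by limma, and the WT difference of -0.28 (95% interval -0.60 to 0.04) did not pass. The KI call was lost without KI Treg replicate 2 (-0.33, adjusted p 0.0787 by limma), KI Tconv replicate 2 (-0.38, adjusted p 0.0733) or KI Tconv replicate 3 (-0.43, adjusted p 0.0565), and within arrays 24 to 27 the KI difference was 0.07.

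Dusp10, the phosphatase of p38 and JNK, was lower in Tregs of both genotypes. The values were 7.85, 7.89, 7.85 and 8.12 in WT Tregs and 9.00, 9.06, 9.05 and 9.34 in WT Tconv. In KI they were 7.98, 8.02, 7.88 and 7.98 in Tregs and 9.21, 9.27, 9.33 and 9.12 in Tconv. The gap between Tregs and Tconv was wider than the range within any group. Dusp10 fell by 1.19 (SE 0.08) in WT Tregs, a 2.28-fold lower level with an adjusted p of 2.06e-09 by limma, and by 1.26 (SE 0.08) in KI Tregs, a 2.40-fold lower level with an adjusted p of 6.26e-10. The interaction was -0.08 (95% interval -0.32 to 0.17), and within arrays 24 to 27 the differences were -1.22 and -1.14.

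**Figure D2:**
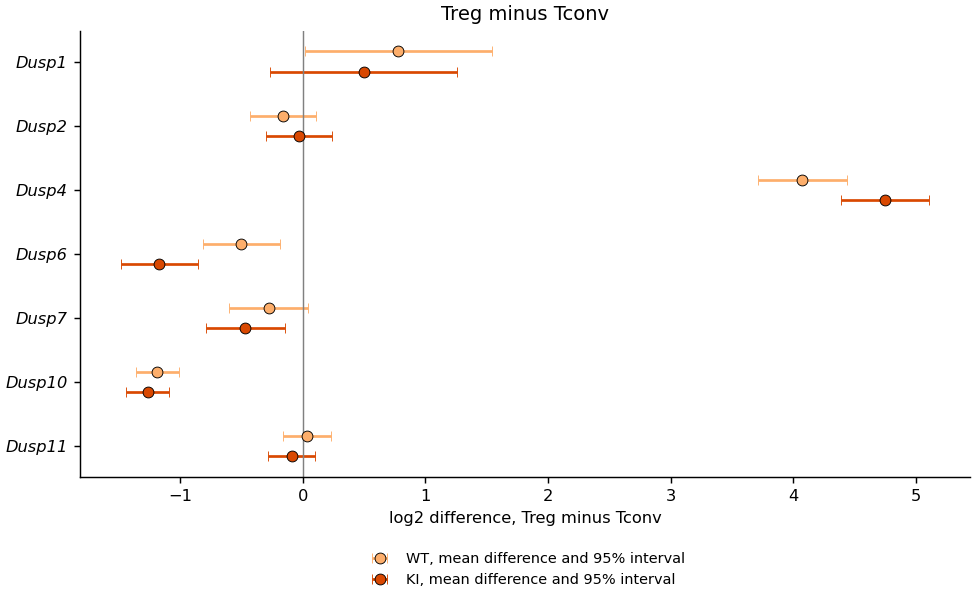
Treg minus Tconv difference in log2 units (x axis) for 7 dual specificity phosphatase genes (y axis) in WT and KI; points are limma estimates and bars their 95% intervals. Dusp4 stands at 4.08 and 4.75, Dusp10 at -1.19 and -1.26 and Dusp6 at -0.50 and -1.17, while the intervals of Dusp2 and Dusp11 include 0.

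Dusp11, the RNA phosphatase, did not pass on the probe set with the higher mean, with a difference of 0.03 (95% interval -0.16 to 0.23) in WT and -0.09 (95% interval -0.29 to 0.10) in KI. Its second probe set gave another answer. On 1454785_PM_at the values were 9.26, 9.16, 9.23 and 9.19 in WT Tregs and 9.68, 9.74, 9.57 and 9.45 in WT Tconv. In KI they were 9.04, 9.10, 9.10 and 9.09 in Tregs and 9.45, 9.51, 9.43 and 9.45 in Tconv. Every Treg array lay below every Tconv array of its genotype. This probe set fell by 0.40 (SE 0.06) in WT Tregs and by 0.38 (SE 0.06) in KI Tregs, with adjusted p-values of 7.33e-05 and 0.000113 by limma over 18621 probe sets. On 1452594_PM_at the same arrays ran from 9.83 to 10.27 with overlap between all groups. The difference between the probe sets was not tested, and the direction of Dusp11 depends on which is read.

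Over all 9 member probe sets that passed the filter, 4 passed in WT (1 higher, 3 lower) and 6 in KI (1 higher, 5 lower), where 28.9% and 36.6% of all probe sets did. The probe sets of Dusp7 ran the same way: 1452097_PM_a_at fell by 0.56 (SE 0.12) in KI Tregs, with an adjusted p of 0.00118 by limma and no overlap. Its KI Treg values were 5.79, 5.60, 5.79 and 5.99 and its KI Tconv values 6.23, 6.48, 6.45 and 6.27. In WT its difference was -0.22 with an adjusted p of 0.176. The third probe set of Dusp7 (3.98 to 4.82) and the second of Dusp10 (group means 3.12 to 3.51) lay at or below 5 on every array and were not tested.

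**Figure D3:**
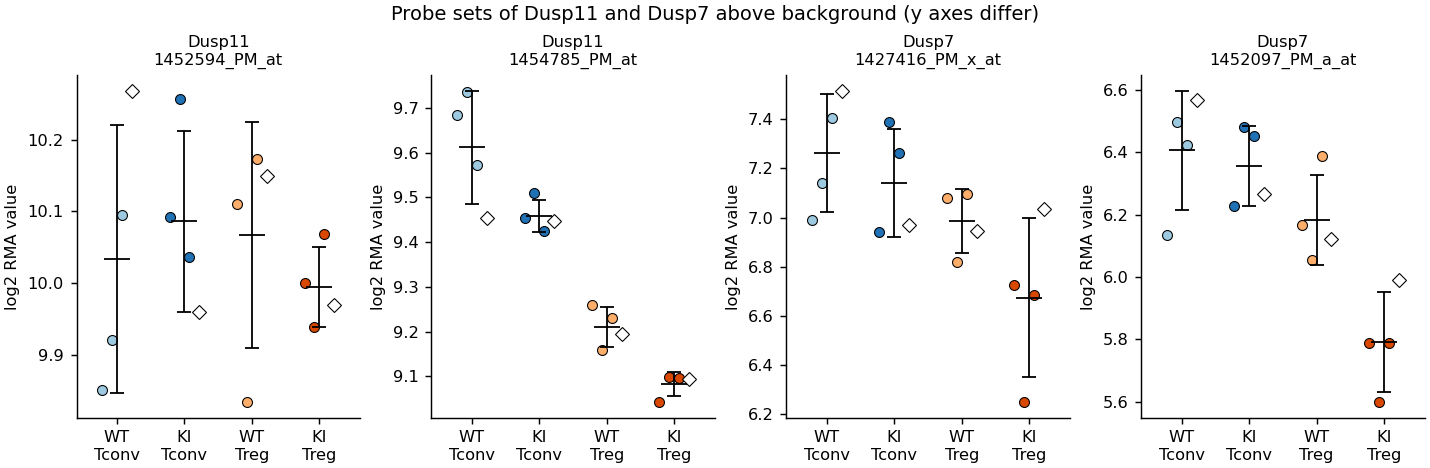
Log2 RMA value (y axis, scaled separately in each panel) of the tested probe sets of Dusp11 and Dusp7 by group; each point is 1 array, white diamonds are arrays 24 to 27, and bars are the mean and SD of 4 arrays. Tregs lie below Tconv on Dusp11 probe set 1454785_PM_at, at 9.04 to 9.26 against 9.43 to 9.74, and overlap them on 1452594_PM_at.

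KI and WT were then compared among Tregs and among Tconv, to ask whether the Foxp3 allele goes with other phosphatase levels. The interaction, the genotype difference of Tregs after subtracting that of Tconv, was tested as well. None of the 7 genes passed by limma in any of these comparisons. At an unadjusted p under 0.05 there were 1 gene in Tregs (Dusp2), 2 in Tconv (Dusp1 and Dusp6) and 2 for the interaction (Dusp4 and Dusp6). The share of all genes at this unadjusted threshold was not counted, so these counts have no background here. At the adjusted p of 0.05, 2.84% of all genes passed in Tregs, 0.135% in Tconv and 0.786% for the interaction. The arrays of KI and WT did not overlap for 0 of 7 genes in Tregs and for 2 in Tconv (Dusp2 and Dusp6), against 8.12% and 3.74% of all genes. The median KI minus WT difference of the 7 genes was 0.04 in Tregs and 0.12 in Tconv, and the median interaction was -0.12, beside 0.04, 0.01 and 0.02 over all genes. None of the 9 probe sets passed either, where 1.51%, 0.0967% and 0.371% of all probe sets passed in Tregs, in Tconv and for the interaction. At an unadjusted p under 0.05 there were 2, 3 and 2 probe sets, again without a count over all probe sets. The comparisons share arrays and are not independent of each other.

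**Figure D4:**
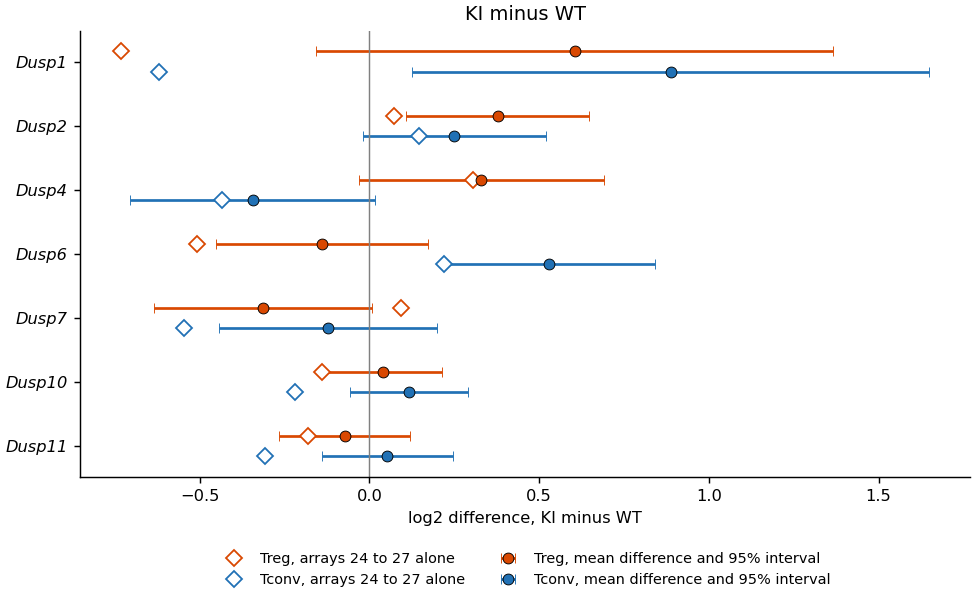
KI minus WT difference in log2 units (x axis) for 7 dual specificity phosphatase genes (y axis) in Tregs and Tconv; filled points are limma estimates with 95% intervals over 4 arrays a group, and open diamonds are the difference between the single arrays of each group numbered 24 to 27. Dusp1 is at 0.60 and 0.89 over all arrays and at -0.73 and -0.62 within arrays 24 to 27, while Dusp4 keeps a positive value in Tregs and a negative one in Tconv.

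Dusp4 differed between KI and WT by 0.33 (SE 0.17, 95% interval -0.03 to 0.69) in Tregs and by -0.34 (SE 0.17, 95% interval -0.70 to 0.02) in Tconv. The interaction was 0.67 (SE 0.24, 95% interval 0.17 to 1.18), with an adjusted p of 0.356 by limma that ran from 0.00293 to 0.643 over 27 alternatives and passed in 4. Array numbers as a block changed this call: the interaction kept its size and passed with 2 blocks (SE 0.10, adjusted p 0.00293 by limma) and with 3 (SE 0.11, adjusted p 0.00312), where 92 and 87 genes passed. In Tregs the adjusted p was 0.340, running from 0.0160, with 2 blocks, to 0.641 over 28 alternatives, and it was 0.566 with 3 blocks. With 3 blocks, the mean KI minus WT difference of the cell types comes from arrays 24 to 27 alone, since each other block holds 1 genotype. Within arrays 24 to 27 the genotype differences were 0.31 and -0.43, and outside them 0.34 and -0.32. In all 4 groups Dusp4 was lower on the array numbered 24 to 27 than on the others. It stood at 8.94 against a mean of 9.49 in WT Tregs and at 9.25 against 9.83 in KI Tregs. In Tconv it was 4.95 against 5.39 in WT and 4.52 against 5.07 in KI. The Tconv group means, 5.28 in WT and 4.93 in KI, lay near the filter of 5, and the 4.52 lay below the highest control, 4.71. The mean of 6 Treg markers, Foxp3 and Il2ra among them, ran from 6.605 to 6.851 in WT Tconv and from 6.185 to 6.322 in KI Tconv. In Tregs it ran from 10.485 to 10.687 in WT and from 10.677 to 10.857 in KI. The part of this marker difference in the Dusp4 values was not tested.

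Dusp6 was higher on every KI than on every WT Tconv array, if barely so on replicate 4, by 0.53 (SE 0.15, 95% interval 0.22 to 0.84), but did not pass, with an adjusted p of 0.401 by limma. In Tregs the difference was -0.14 (95% interval -0.45 to 0.17). The interaction was -0.67 (SE 0.21, 95% interval -1.11 to -0.22), with an adjusted p of 0.252 that ran from 0.00472 to 0.494 over 27 alternatives and passed in 4. With array numbers as 2 and 3 blocks it passed at the same size, with adjusted p-values of 0.0452 and 0.0132 by limma. In Tconv the adjusted p ran from 0.00131 to 1.00 over 28 alternatives. Without KI Tconv replicate 4, an array of the set 24 to 27, the Tconv difference was 0.65 with an adjusted p of 0.0423 by limma, and without KI Treg replicate 2 the interaction was -0.82 with an adjusted p of 0.0476. Within arrays 24 to 27 the Tconv difference was 0.22 and outside them 0.63.

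Dusp2 was 9.86, 10.10, 9.42 and 9.62 in KI Tregs and 9.87, 9.79, 9.71 and 9.74 in KI Tconv. Against the WT values above, KI Tconv lay higher on every array, by 0.25 (95% interval -0.02 to 0.52), with an adjusted p of 0.828 by limma. In Tregs the groups overlapped, with a difference of 0.38 (95% interval 0.11 to 0.65) and an adjusted p of 0.131. Within arrays 24 to 27 the differences were 0.07 in Tregs and 0.15 in Tconv.

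On the probe set that represents each gene, the genotype intervals of Dusp7, Dusp10 and Dusp11 included 0 in both cell types. Dusp10 had the narrowest, at 0.04 (95% interval -0.13 to 0.21) in Tregs and 0.12 (95% interval -0.06 to 0.29) in Tconv. With array numbers as 3 blocks its differences were -0.22 (SE 0.09) and -0.14 (SE 0.09), with adjusted p-values of 0.564 and 1.00 by limma. Dusp7 differed by -0.31 (95% interval -0.63 to 0.01) in Tregs. Its second probe set, 1452097_PM_a_at, differed there by -0.39 (95% interval -0.64 to -0.14) without overlap but with an adjusted p of 0.110 by limma over all probe sets. Dusp11 differed by -0.07 in Tregs and 0.05 in Tconv. Its second probe set, 1454785_PM_at, differed by -0.13 (95% interval -0.26 to 0.001) in Tregs, without overlap. In Tconv it differed by -0.15 (95% interval -0.28 to -0.02). Neither difference passed, with adjusted p-values of 0.321 and 0.881 by limma over all probe sets.

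Dusp1 had the widest spread among the KI arrays. Its values were 11.86, 11.66, 11.97 and 10.56 in KI Tregs and 11.38, 11.56, 11.60 and 9.53 in KI Tconv. In both cell types the first 3 KI arrays, numbered 13 to 23, lay above every WT array, while KI replicate 4 lay below every WT array of its cell type. Over all arrays the KI minus WT difference was 0.60 (SE 0.36, adjusted p 0.412 by limma) in Tregs and 0.89 (SE 0.36, adjusted p 0.733) in Tconv. Outside arrays 24 to 27 it was 1.05 in Tregs and 1.39 in Tconv, with adjusted p-values of 0.000133 and 6.07e-06 by limma, and within them it was -0.73 and -0.62. The Dusp1 genotype difference thus did not hold within the only set of array numbers that contains both genotypes.

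Other immediate early genes were read beside Dusp1 on the same arrays. Fos, a subunit of the AP-1 transcription factor, differed between KI and WT by 1.18 in Tregs and 1.51 in Tconv outside arrays 24 to 27 and by -0.23 and -0.73 within them. Jun, its partner, differed by 0.82 and 1.94 outside and by -0.56 and -0.98 within. Fosb differed by 2.58 and 1.89 outside and by 0.01 and 0.43 within, with WT levels near background. Over 17 immediate response genes tested, the median KI minus WT difference was 0.34 in Tregs and 0.32 in Tconv outside arrays 24 to 27, with 12 genes higher in each. Within them the medians were 0.01 and 0.03, with 9 and 11 genes higher. Medians over all genes were not computed for these sets of arrays. The KI minus WT differences of Fos, Jun and Dusp1 were thus positive outside arrays 24 to 27 and negative within them, in both cell types. Within WT Tregs, from arrays 4 to 9 to array 24, Dusp1 went from 10.78 to 11.29, Fos from 10.38 to 9.50 and Jun from 9.06 to 8.44. In WT Tconv Jun went from 8.11 to 9.08, while Dusp1 stood at 10.12 and 10.15. The mean of the 17 genes was 8.19 on array 24 against 8.35 to 8.47 on the other WT Treg arrays. In WT Tconv it was 7.77 on replicate 4 against 7.74 to 7.80. The mean of 6 monocyte markers was also higher on replicate 4 than on the other arrays of its group in 3 of 4 groups, at 6.23 against 4.29 to 4.98 in WT Tregs, 5.21 against 4.23 to 4.96 in WT Tconv and 5.05 against 4.07 to 4.92 in KI Tconv. In KI Tregs it was 5.68 against 4.01 to 5.96. The neutrophil list was highest on replicate 4 in WT Tregs (6.49) and WT Tconv (5.805), but not in KI Tregs (5.52) or KI Tconv (5.26). The B cell list was highest on replicate 4 in WT Tregs (6.32) alone. The part of the array numbers and of these markers in the Dusp1 difference was not tested.

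**Figure D5:**
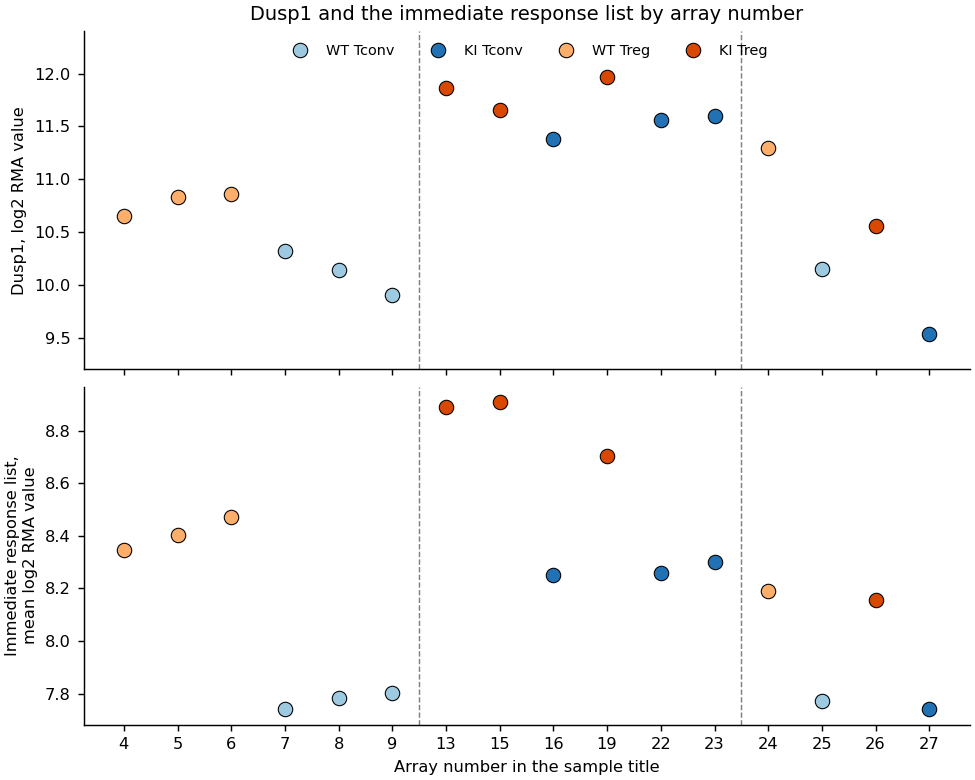
Log2 RMA value of Dusp1 (upper panel) and mean log2 value of 17 immediate response genes (lower panel) on each of 16 arrays, ordered by the array number in the title; colours are groups and dashed lines part arrays 4 to 9, 13 to 23 and 24 to 27. The KI Tconv arrays stand at 11.4 to 11.6 for Dusp1 on arrays 13 to 23 and at 9.53 on array 27, and the list mean at 8.25 to 8.30 and 7.74.

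The pathway around the phosphatases was described with lists of its other members. Of 22 genes of the route from Ras to ERK, 13 were tested, and 6 fell and 1 rose in Tregs of each genotype, where 34.6% of all genes passed in WT and 41.1% in KI, with a median difference of -0.30 in WT and -0.19 in KI beside -0.02 and -0.02 over all genes, against which the medians of the later lists also stand. Rasgrp2, a Ras and Rap exchange factor, fell by 0.76 in WT Tregs (adjusted p 1.82e-06 by limma) and by 1.33 in KI Tregs (adjusted p 7.06e-10). Rasgrp1, which activates Ras below the T cell receptor, and the ERK-activated kinase Rps6ka3 fell by 0.36 and 0.49 in WT Tregs. In KI Tregs they fell by 0.26 and 0.36. Nras fell by 0.44 in WT Tregs and 0.52 in KI Tregs, and the scaffold Ksr1 rose by 0.67 and 0.94. Rasgrp2 also passed between genotypes, falling by 0.47 in KI against WT Tregs (adjusted p 0.00651 by limma), with an interaction of -0.57 (adjusted p 0.0342). Its KI minus WT difference in Tregs was -0.46 outside arrays 24 to 27 and -0.47 within them. Rasgrp2 was the 1 gene of the 13 to pass in each, where 2.84% of all genes passed in Tregs and 0.786% for the interaction. No gene of this list passed in Tconv, where 0.135% of all genes did, with 0 at an unadjusted p under 0.05.

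Of 23 genes of the p38 and JNK routes, 19 were tested. In WT Tregs 5 rose and 3 fell, and in KI Tregs 7 rose and 4 fell, with medians of -0.03 and 0.03. Of all genes 34.6% and 41.1% passed. Gadd45b, a stress-induced activator of the p38 and JNK routes, rose by 1.51 in WT Tregs (adjusted p 8.92e-06 by limma) and by 1.54 in KI Tregs (adjusted p 5.52e-06). Mapkapk2, a kinase activated by p38, rose by 0.68 and 0.87, and Gadd45g rose by 1.79 in WT and 1.675 in KI. Mapk9, which encodes a JNK, rose by 0.28 in WT and 0.36 in KI. Gadd45a was higher in KI than in WT Tregs by 0.74 (adjusted p 0.0337 by limma), at 0.87 outside arrays 24 to 27 and 0.35 within them. It was the 1 gene of the 19 to pass between these groups, where 2.84% of all genes passed.

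Of 8 feedback inhibitors of ERK signalling that are not phosphatases, 4 were tested, and 2 rose in Tregs of each genotype, beside 34.6% and 41.1% of all genes passing, with medians of 0.32 and 0.34. Spry1, an inhibitor of receptor signalling to ERK, rose by 2.40 in WT Tregs (adjusted p 3.18e-08 by limma) and by 2.05 in KI Tregs. Errfi1, an inhibitor of epidermal growth factor receptors, rose by 0.43 and 0.46. In this pathway Dusp4 and Spry1 were thus higher in Tregs while Dusp6 was lower.

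Of 24 immediate response genes, 17 were tested, and 7 rose and 1 fell in Tregs of each genotype, beside 34.6% and 41.1% of all genes passing, with medians of 0.34 and 0.34. Nr4a3, an orphan nuclear receptor induced by antigen receptor signals, rose by 1.35 and 1.37. Egr2 rose by 1.07 in WT and 0.89 in KI, and Elk3 by 0.77 and 0.78. Etv5, an ETS factor induced by ERK, rose by 2.14 and 2.19 from a Tconv level near background. In the genotype comparisons 0 passed by limma, where 2.84% of all genes passed in Tregs and 0.135% in Tconv. At an unadjusted p under 0.05 there were 4 of the 17 in Tregs and 7 in Tconv. The share of all genes at that threshold was not counted.

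Among 22 other dual specificity phosphatases, 6 were tested, and 2 passed in WT (34.6% of all genes) and 3 in KI (41.1%). Ssh1, which dephosphorylates cofilin, rose in Tregs by 0.66 in WT and 0.64 in KI. Rngtt, the mRNA capping enzyme, fell by 0.35 and 0.29, and Ssh2 fell by 0.26 in KI. The list medians were -0.06 and -0.14. Apart from Gadd45a, no gene of the p38 and JNK, feedback and other phosphatase lists passed between genotypes by limma. Of all genes, 2.84% passed in Tregs and 0.135% in Tconv. At an unadjusted p under 0.05 these lists had 1, 1 and 1 in Tregs, Gadd45a included, and 2, 0 and 0 in Tconv. The share of all genes at that threshold was not counted.

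The genes most like each member were taken as those with the smallest root mean square distance between centred log2 values over the 16 arrays. For Dusp4 they were Ctla4, an inhibitory receptor of Tregs, at 0.29, Cd83 at 0.38 and Plagl1 at 0.41, against an SD of 2.30 for Dusp4 itself. For Dusp1 they were Tnfaip3, an inhibitor of NF-kB, at 0.25, Sik1 at 0.36 and Klf6 at 0.38. Dusp6 lay nearest to Smad7, an inhibitor of TGF-beta signalling, at 0.19, with Mylpf and Dph5 at 0.20, and Dusp10 lay nearest to Atp1b1 at 0.11, Pdlim1 at 0.14 and Pgm3 at 0.15. Dusp2 (Paxx, Ppp5c and Vamp2, 0.09 to 0.14), Dusp7 (Zfp800, Ube3a and Ube4a, 0.12 to 0.14) and Dusp11 (Phip, Dis3 and Pnn, 0.07 to 0.10) varied little, so a small distance to them says little about likeness.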

How the data were processed

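The authors deposited 1 log2 value for each probe set and array, made with RMA in Partek 6.5 per the submitters' processing notes. RMA corrects background, gives every array 1 distribution and combines the probes within a set; its options are not given in the sources used here. Per the labels' protocols, biotinylated cRNA was made with the Affymetrix 3' IVT kit from cells lysed after the sort. No scanner files were used. Of 45141 probe sets, 28898 matched 1 gene, 551 several and 15588 none, and 104 were controls. Each gene was represented by its probe set with the highest mean, and genes above a log2 value of 5 on at least 4 arrays were kept. The 4 group means were estimated in 1 fit of all 16 arrays by limma 3.58.1 in R 4.3.3, with a variance trend on mean expression. Two-sided p-values were adjusted (Benjamini-Hochberg) over 8139 genes, or over 18621 probe sets where a probe set is named, with a threshold of 0.05. The scripts were tested on simulated data. Named genes are the 8 members, up to 3 passing genes with the lowest p per list and comparison, the 3 nearest genes per member, Foxp3 and Il2ra. Fos, Jun, Fosb, Cd8a, Cd79b, Cd68, Nkg7 and Ms4a1 were named after their values were seen. The members and lists were chosen with earlier results of these data known. The alternatives were other filters, probe set rules, variance models, array weights, array numbers as a block, and leaving out arrays. The number of arrays limits the precision.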

Additional observations from a re-analysis of the deposited data

Results flagged for a closer look

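Within groups of 4 arrays, 44 groups of member probe sets were checked for a lowest or highest array whose gap to the nearest other array, divided by the range, exceeded the 95% critical value of Dixon's test, which chance passes in about 5% of groups, and 2 groups had one. Dusp1 in KI Tconv was 9.53 on replicate 4, with the other 3 arrays at 11.38 to 11.60 and a gap of 0.897 of the range. Dusp11 probe set 1454785_PM_at in KI Tregs was 9.04 on replicate 1, with the other 3 arrays at 9.09 to 9.10 and a gap of 0.919 of the range, in a group whose SD was 0.03.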

How the results depend on the processing

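The calls of Dusp4, Dusp6 and Dusp10 between Tregs and Tconv held in both genotypes under all 28 alternatives with a test, whereas the genotype and interaction counts moved with array weights, array numbers as a block and single arrays inside and outside the set 24 to 27. With array weights, genes passing numbered 1715 in Tregs and 249 in Tconv between KI and WT and 453 for the interaction, and members passing 3, 2 and 2; Dusp2 differed between KI Tregs and Tconv by 0.048. With array numbers as 2 blocks, 1 member passed in Tregs (339 genes) and 2 for the interaction (92 genes). With array numbers as 3 blocks, 29 genes passed in Tregs, 5 in Tconv, and 2 members for the interaction (87 genes), while the KI minus WT difference turned to -0.82 in Tregs and -0.54 in Tconv for Dusp1, -0.22 and -0.14 for Dusp10 and -0.18 in Tconv for Dusp11. These turns are no separate evidence, since this fit takes the mean genotype difference of the cell types from arrays 24 to 27 alone. Without arrays 24 to 27, an alternative chosen after seeing the data, 410 genes passed in Tregs and 105 in Tconv, members passing were 2 in Tregs, 2 in Tconv and 1 for the interaction (71 genes), and Dusp7 differed by 0.019 in Tconv. Within them Dusp7 differed between KI Tregs and Tconv by 0.066. On the 2 groups alone, 4 genes passed in Tconv. With the mean of a gene's probe sets Dusp11 differed by -0.18 between WT Tregs and Tconv and by -0.05 between KI and WT Tconv, and with the most variable probe set by -0.40 and -0.15, with an interaction of 0.024; here the probe set read changes, and otherwise the cause was not tested. Leaving out 1 array at a time, genes passing ran from 90 to 558 in Tregs (lowest without KI Treg replicate 1, 106 without WT Treg replicate 1, highest without KI Treg replicate 4), 7 to 65 in Tconv (highest without KI Tconv replicate 4) and 32 (without KI Treg replicate 1) to 104 for the interaction, and members passing from 0 to 2 in Tconv and 0 to 1 for the interaction. Between Tregs and Tconv, Dusp11 in WT ran from -0.028 to 0.11, and in KI Dusp2 from -0.15 to 0.078 and Dusp1 from -0.000358 to 0.81. Between KI and WT, Dusp6 in Tregs ran from -0.29 to 0.02 and Dusp11 in Tconv from -0.00832 to 0.13, and the interaction ran from -0.00460 to 0.24 for Dusp2 and -0.78 to 0.035 for Dusp1. No paired analysis was possible because the labels give no replicate numbers shared between groups.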
